A study of Mus musculus with 6 samples.

Results

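The fibrillar collagens are the genes whose protein chains form the banded fibrils of connective tissue. They were chosen by gene identity: the rows of the expression table whose Ensembl identifiers map to Col1a1, Col1a2, Col2a1, Col3a1, Col5a1, Col5a2, Col5a3, Col11a1, Col24a1 and Col27a1 in the mouse GENCODE annotation, which are 10 of 56953 rows. Of these, 9 entered the test together with all 14096 genes that reached 10 normalized counts in 3 or more libraries, and Col2a1 was too low to enter. The libraries were made from mouse embryonic fibroblasts (MEFs), connective tissue cells grown out of mouse embryos. The comparison was between 3 libraries labelled WT, of wild-type cells, and 3 labelled GαqKO, of cells in which both Gnaq and Gna11 were targeted (Gαq/11 knockout); Gαq and Gα11 carry signals from membrane receptors to phospholipase C. Both kinds of MEF were grown in DMEM with fetal bovine serum and antibiotics, and came from the same provider. The paper describes no treatment of the sequenced cells and does not give their confluence. RNA was poly-A selected and read in pairs on an Illumina NovaSeq. The age of the embryos and the number of independent lines per genotype are not given in the sources used here, and the libraries of a genotype are described as biological replicates.

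The expression table holds normalized counts, which are read counts per gene divided by 1 size factor per library. The reads behind them, recovered from the values in 5 libraries, numbered 9853000 to 12229175 per library. Gna11, a targeted gene, was at 2123 to 2180 in the libraries labelled WT and at 419 to 472 in those labelled GαqKO (log2 fold change -2.25 ± 0.06, SE; limma, adjusted p = 9.16e-13). Gnaq, the other targeted gene, was not lower: it stood at 1660 to 1747 against 1888 to 1960 (log2 fold change 0.19 ± 0.04, SE; limma, adjusted p = 0.00212). A gene-level count does not show whether a transcript can still make protein. The study reports loss of Gαq protein in its GαqKO MEFs by Western blot and immunofluorescence. The Gnaq counts by themselves show no loss of transcript, so the groups are named here by their labels. The Y-linked genes Ddx3y, Eif2s3y, Kdm5d and Uty were at 262 to 1239 in the libraries labelled WT and at 0 in all 3 labelled GαqKO. Genotype and the origin of the cells therefore cannot be told apart. Xist was at 0 in all 6 libraries. Some genes that lie inside another gene are listed at 0 here, and Xist was not checked for this.

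Fibrillar collagens are made as long procollagen chains that are hydroxylated and fold into triple helices in the endoplasmic reticulum, are exported, lose their end propeptides, and then line up into fibrils that lysyl oxidases cross-link. Type I collagen, built from the Col1a1 and Col1a2 chains, is the bulk of most fibrils in skin, tendon and bone, and type III accompanies it in soft tissues. Type V chains sit inside type I fibrils and help to start them and to limit their width; types II and XI form the fibrils of cartilage, and types XXIV and XXVII are rarer chains with shorter helices known mainly from developing bone and cartilage.

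The members lie on 8 chromosomes (GRCm39), and only Col3a1 and Col5a2 on chromosome 1 and Col11a1 and Col24a1 on chromosome 3 share one. Stretches just before a transcript start are shown here for 4 of them, the genes that carry the results that follow. The 4 are the 2 chains of type I collagen, which changed by unequal amounts, and the members with the largest fall and the only rise. Each stretch runs 5′ to 3′ along the gene's strand. It covers the 150 bases that end at the base before the annotated start of the gene's Ensembl canonical transcript. Capitals mark CCAAT, the CCAAT box bound by NF-Y, or its reverse complement ATTGG. All 4 genes lie on the plus strand. The stretch of Col1a1 is chr11:94826900-94827049, of Col1a2 chr6:4505343-4505492, of Col11a1 chr3:113823984-113824133 and of Col24a1 chr3:144998083-144998232. Col1a2 as a whole starts earlier, at chr6:4504814, so its stretch lies inside the gene.
Col1a1: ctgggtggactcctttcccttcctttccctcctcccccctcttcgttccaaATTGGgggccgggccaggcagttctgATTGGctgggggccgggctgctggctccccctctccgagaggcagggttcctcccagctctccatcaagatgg
Col1a2: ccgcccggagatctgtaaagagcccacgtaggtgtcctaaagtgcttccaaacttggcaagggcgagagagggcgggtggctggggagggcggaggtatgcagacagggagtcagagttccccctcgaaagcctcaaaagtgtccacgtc
Col11a1: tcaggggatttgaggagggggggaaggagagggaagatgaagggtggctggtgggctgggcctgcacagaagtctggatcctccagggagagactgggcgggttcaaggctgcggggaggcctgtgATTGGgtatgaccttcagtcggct
Col24a1: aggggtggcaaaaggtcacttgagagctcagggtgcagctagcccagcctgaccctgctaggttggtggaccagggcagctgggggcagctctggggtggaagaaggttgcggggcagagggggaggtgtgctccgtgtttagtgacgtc
Over a window of 250 bases before the start, and on both strands, CCAAT was found before 4 members (Col1a1, Col2a1, Col5a3 and Col11a1), with 2 matches before Col1a1. The same letters were found before 36.5% of 21770 genes. The GC box GGGCGG was found before 7 members, against 36.3% of all genes and 50.6% of the tested genes. TATAAA was found only before Col3a1 (11.9% of all genes), the ACGT core TGACGT before Col5a2 and Col24a1 (6.49%), and CAGACA, an element associated with SMAD proteins, before 3 members (15.6%). No matches of different motifs before a member shared letters. The GC content of the windows ran from 35.2% before Col3a1 to 75.6% before Col5a1, against a median of 57.2% for the tested genes. For Col1a2 and Col27a1 the window lies inside the gene, past its first annotated base. Letters before that first base were not searched, so the matches of these genes depend on the start used. The annotated starts were not measured here, and a match only says that the letters are present.

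The fibrillar collagens were lower in the libraries labelled GαqKO with 1 exception. Of the 9 members tested, 8 fell (limma, adjusted p under 0.05), against 34.1% of all genes tested, and 1, Col24a1, rose, against 31.8%. In either direction 65.8% of all tested genes passed. With a log2 fold change under -1 as well, 6 members fell (10.5% of all genes), and Col24a1 also passed a log2 fold change over 1 (10.2%, and 20.7% in either direction). Col11a1 reached 10 normalized counts only in WT, so its call was nearly fixed by the filter. With 10 required in every library, 7 members fell and 5 also passed a log2 fold change under -1. The share of all genes under that filter is not given here. The median log2 fold change of the tested members was -1.55, and that of all tested genes was -0.01. In 9 of the 10 members every GαqKO library lay under every WT library, an ordering found for 35.8% of all tested genes. The 9 include Col2a1, which was not tested and so is not part of that share. The opposite ordering, found for 33.8%, held for Col24a1. Together the 10 members took 0.401% ± 0.0166 of the normalized counts in the libraries labelled WT and 0.200% ± 0.00498 in those labelled GαqKO (SD, n = 3 each). In bulk RNA, fewer cells that make a transcript and less of it per cell cannot be told apart. Nothing in the sources says whether the replicates came from separate cultures, so the p-values measure the spread between these libraries.

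**Figure D1:**
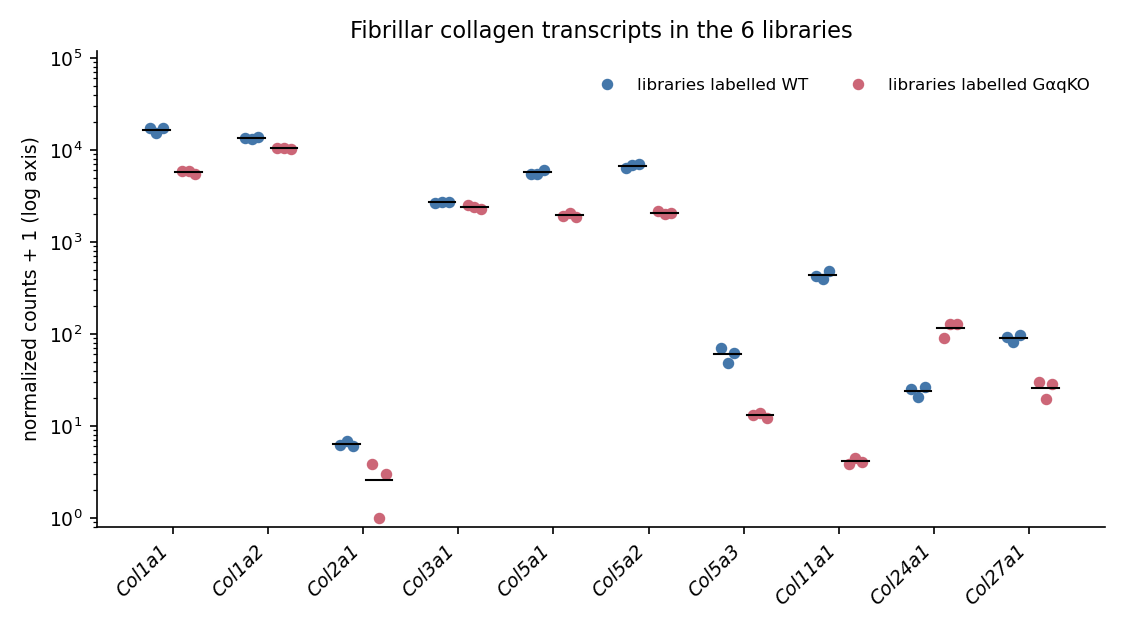
Normalized counts plus 1 of the 10 fibrillar collagens (log axis) in the 3 libraries labelled WT (blue) and the 3 labelled GαqKO (red), with a bar at each group mean. The red points lie under the blue ones for every gene but Col24a1, and the gap is widest for Col11a1, which falls from 394 to 481 normalized counts to 2.82 to 3.47.

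Type I collagen is encoded by 2 genes, and they did not change alike. Col1a1, the gene of the α1(I) chain (chr11:94827050-94843868), was at 17286, 15324 and 17402 normalized counts in WT replicates 1, 2 and 3, and at 5952, 5911 and 5461 in GαqKO replicates 1, 2 and 3. The groups stood far apart, with WT replicate 2 the lowest of its group. Col1a1 fell by 1.53 on the log2 scale (SE 0.05; limma, adjusted p = 2.11e-11), which makes it 2.88-fold higher in WT. Col1a2, the gene of the α2(I) chain (chr6:4504814-4541555), was at 13486, 13061 and 13807 in WT and at 10533, 10585 and 10246 in GαqKO. These groups did not overlap either, but lay close. Col1a2 fell by 0.36 (SE 0.04; limma, adjusted p = 2.42e-06), or 1.29-fold. By immunostaining, the study reports the opposite direction for deposited protein, with a prominent collagen I matrix from GαqKO MEFs and almost none from WT. Transcript counts do not measure deposited collagen, and how the counts relate to that matrix was not tested.

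Col3a1, which encodes the single chain of type III collagen (chr1:45350698-45395840), had the smallest change of the tested members. Its normalized counts were 2643, 2743 and 2745 in WT and 2517, 2384 and 2278 in GαqKO. The lowest WT library was above the highest GαqKO library. That margin was about as wide as the range within WT and narrower than the range within GαqKO. It fell by 0.18 (SE 0.05; limma, adjusted p = 0.00388); with DESeq2 on the reads of 5 libraries the log2 fold change was -0.14 and was not called (adjusted p = 0.0685).

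The type V genes fell together with Col1a1. Col5a1, the α1(V) chain, was at 5526, 5475 and 6102 normalized counts in WT and at 1927, 2050.0 and 1875 in GαqKO, and fell by 1.55 (SE 0.05; limma, adjusted p = 1.26e-11). Col5a2, the α2(V) chain, was at 6307, 6836 and 6989 in WT and at 2155, 2033 and 2081 in GαqKO, and fell by 1.68 (SE 0.05; limma, adjusted p = 2.41e-12). For both chains all WT libraries were above all GαqKO libraries, and the replicates of a group stayed close. The third type V gene, Col5a3, was far less abundant, at 70.0, 47.6 and 61.1 in WT and 12.2, 12.7 and 11.1 in GαqKO. WT varied more among replicates than GαqKO did, without overlap. Col5a3 fell by 2.20 (SE 0.26; limma, adjusted p = 4.14e-06). Part of Col5a1, 15.9% of its exon bases, lies inside the spans of other genes, so its count is less certain. For 8 members this share was 0%.

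The 2 neighbours on chromosome 1 differed in size of change. Col3a1 and Col5a2 are adjacent, 16713 bases apart, and face each other tail to tail on opposite strands. Over the 6 libraries the change was -0.18 in Col3a1 and -1.68 in Col5a2, while the median of the 821 tested genes of that chromosome was -0.02.

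Among the chains known from cartilage, Col11a1 had the largest fall of any member. Col11a1, the α1(XI) chain, which can also join type V chains, was at 429, 394 and 481 normalized counts in WT and at 2.82, 3.47 and 3.02 in GαqKO. It was plainly present in every WT library and at the level of about 3 reads in each GαqKO library. On the log2(normalized count + 1) scale it fell by 6.73 (SE 0.21; limma, adjusted p = 5.44e-12), a size that depends on the count added before the logarithm. Col11a1 entered the test through its WT libraries alone, so a call of lower was nearly fixed by the filter. Per read of depth, the 1290 reads of the 3 WT libraries and the 6 reads of the 2 GαqKO libraries with recovered reads gave a WT to GαqKO ratio of 139.7, with an exact 95% interval of 64.0 to 381 that covers counting error only. Its partner Col11a2, the α2(XI) chain, which the rule left out, was at 36.5, 53.4 and 39.7 in WT and 11.3, 15.0 and 13.1 in GαqKO, and fell by 1.64 (SE 0.27; limma, adjusted p = 0.000124).

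Col2a1, the type II collagen of cartilage and also a source of the third chain of type XI, was near the limit of detection. It was at 5.22, 5.83 and 5.09 normalized counts in WT and at 2.82, 0 and 2.01 in GαqKO, and it was not tested. Over the 5 libraries with recovered reads there were 16 reads in WT and 3 in GαqKO, a ratio of 3.47 with an exact 95% interval of 0.992 to 18.6, so no difference was detectable at this depth. Of 9 chondrocyte markers, 2 were high enough to test: Sox9 rose (log2 fold change 0.62; limma, adjusted p = 1.03e-07), Hapln1 was not called, Chad was at 0 in all libraries and Acan, Col9a1, Col9a2, Matn1, Matn3 and Snorc were under 10 in each. The summed chondrocyte markers, nearly all of it Sox9, ran from 1526 to 1730.2 in WT and from 2439 to 2499 in GαqKO. All exon bases (100%) of Sox9 and of Chad lie inside the spans of other genes, so the counts of both are less certain.

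The remaining chains, types XXVII and XXIV, moved in opposite directions. Col27a1 was at 90.8, 81.6 and 95.7 normalized counts in WT and at 29.1, 18.5 and 27.2 in GαqKO, and fell by 1.82 (SE 0.22; limma, adjusted p = 6.06e-06). Col24a1 was at 24.0, 19.4 and 25.4 in WT and at 89.2, 126.0 and 125.9 in GαqKO. Every GαqKO library was above every WT library, with GαqKO replicate 1 lower than the other two. Its log2 fold change was 2.25 (SE 0.21; limma, adjusted p = 5.15e-07), or 4.76-fold higher in GαqKO. Col24a1 is known from bone. Of 7 osteoblast markers, Ibsp was at 0 in all libraries and Sp7, Alpl and Bglap were under 10 in each. Runx2, which made up most of their sum, was at 1618 to 1848 in WT and at 1726 to 1804 in GαqKO and was not called (log2 fold change 0.04; limma, adjusted p = 0.574), whereas Dmp1 was at 0 in WT and at 24.4 to 44.3 in GαqKO and Phex rose by a log2 fold change of 0.96 (limma, adjusted p = 4.65e-07). The summed osteoblast markers ran from 1817 to 2037 in WT and from 2167 to 2203 in GαqKO, and whether they bear on Col24a1 was not tested.

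**Figure D2:**
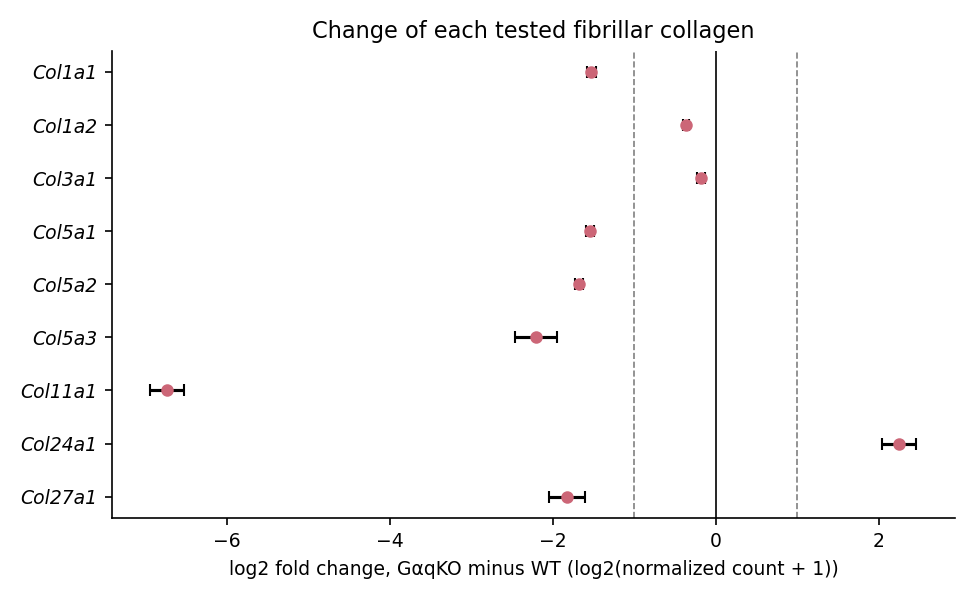
Log2 fold change, GαqKO minus WT on the log2(normalized count + 1) scale, of the 9 tested fibrillar collagens, with bars of 1 standard error (limma, n = 3 libraries per group) and dashed lines at -1 and 1. Col1a2 and Col3a1 lie between the dashed lines and 0, Col11a1 lies at -6.73, and Col24a1 alone lies to the right, at 2.25.

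To compare levels between genes, the normalized counts were divided by the length of each gene's merged exons. On that scale the libraries labelled WT were led by Col1a1, at 2539 ± 177.8 normalized counts per kb, then Col1a2, at 1063 ± 29.6, Col5a1 at 653 ± 39.9, Col5a2 at 600.2 ± 32.0, Col3a1 at 264 ± 5.70 and Col11a1 at 34.0 ± 3.42 (SD, n = 3). Col5a3, Col27a1, Col24a1 and Col2a1 followed at 8.65 or less. In the libraries labelled GαqKO the order was Col1a1 at 879 ± 41.4, Col1a2 at 826 ± 14.4, Col3a1 at 233 ± 11.6, Col5a1 at 224 ± 10.3, Col5a2 at 187 ± 5.52 and Col24a1 at 14.9 ± 2.78. Within that order Col1a1 and Col1a2, Col3a1 and Col5a1, Col27a1 and Col5a3, and Col11a1 and Col2a1 were neighbours whose libraries overlapped, as were Col5a3 and Col27a1 in WT. By rank, Col3a1 stood at 5 in WT and at 3 in GαqKO, and Col11a1 at 6 and at 9.

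The make-up of the fibrillar collagen transcripts differed between the groups. Per length, Col1a1 made up 49.0% ± 1.56 of the members' total in WT and 37.1% ± 0.630 in GαqKO, while Col1a2 made up 20.6% ± 0.381 and 34.9% ± 0.489 (SD, n = 3). Col3a1 went from 5.11% ± 0.277 to 9.83% ± 0.275, and the type V chains Col5a1 and Col5a2 from 12.6% ± 0.420 and 11.6% ± 0.799 to 9.44% ± 0.310 and 7.90% ± 0.304. These shares depend on the length used: with the length of the Ensembl canonical transcript, Col1a1 made up 37.7% in WT and 25.1% in GαqKO and Col1a2 33.7% and 50.2%, so that Col1a2 led in GαqKO. With that length Col5a2 also stood above Col5a1, at 889 against 675 normalized counts per kb in WT and at 277 against 231 in GαqKO.

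**Figure D3:**
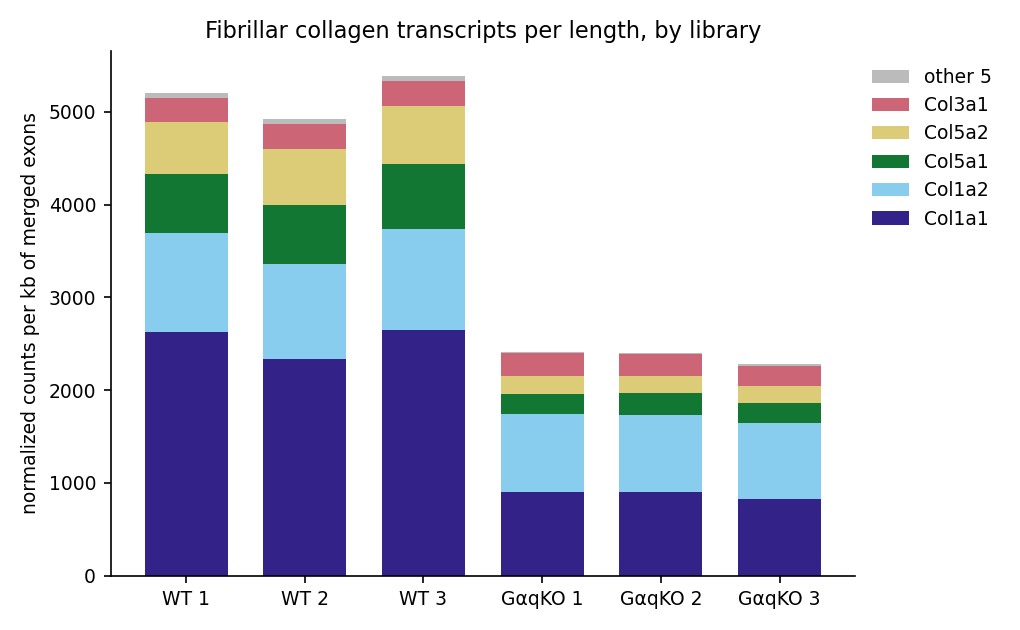
Normalized counts per kb of merged exons of the fibrillar collagens in each of the 6 libraries, stacked by gene, with the 5 least abundant genes summed in grey. The GαqKO columns are shorter than the WT columns, and Col1a1, at the base, is the part that differs most in height, while the Col1a2 part above it differs less.

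Ratios between chains within a library do not depend on the library's size factor, and differences in a log2 ratio between groups do not depend on gene length. Each of 8 ratios was compared by a two-sided exact permutation test, for which 3 against 3 libraries cannot give a p under 0.1. The Col1a1 to Col1a2 ratio per kb compares the transcripts, not the protein, of the 2 chains of type I collagen. It was 2.47, 2.26 and 2.43 in WT and 1.09, 1.08 and 1.03 in GαqKO. No GαqKO library came near the lowest WT library. These levels rest on merged exons: with canonical transcripts the mean ratios were 1.12 and 0.499, on either side of 1, and the difference between the groups was the same. The log2 ratio fell by 1.16 (SE 0.05; exact p = 0.1, adjusted 0.114 over the 8 ratios).

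The balance of type III against type I transcripts depended on which type I chain was the reference. Col3a1 per Col1a1 was 0.0977, 0.114 and 0.101 in WT and 0.270, 0.258 and 0.267 in GαqKO, higher by 1.35 on the log2 scale (SE 0.07; exact p = 0.1, adjusted 0.114). Col3a1 per Col1a2 was 0.241, 0.259 and 0.245 in WT and 0.294, 0.277 and 0.274 in GαqKO, higher by 0.18 (SE 0.04; exact p = 0.1, adjusted 0.114). The first ratio stood more than 2-fold apart and the second only just cleared the WT range.

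Type V transcripts were set against type I transcripts with 1 pair per reference chain. Col5a1 per Col1a1 was 0.241, 0.269 and 0.264 in WT and 0.244, 0.261 and 0.258 in GαqKO, and this was the 1 ratio of the 8 in which the groups overlapped (log2 difference -0.02, SE 0.06; exact p = 0.7). Col5a2 per Col1a2 was 0.529, 0.592 and 0.573 in WT and 0.232, 0.217 and 0.230 in GαqKO, lower by a log2 difference of -1.32 (SE 0.06; exact p = 0.1, adjusted 0.114). Within type V, Col5a1 per Col5a2 had a mean ratio of 1.09 in WT and 1.20 in GαqKO (log2 difference 0.14, SE 0.07; exact p = 0.1, adjusted 0.114). Without GαqKO replicate 2 that difference was 0.0799, and without WT replicate 2 it was 0.0935, both with an exact p of 0.3. Col5a3 per Col5a1 had a mean ratio of 0.0131 in WT and 0.00779 in GαqKO (log2 difference -0.75, SE 0.16; exact p = 0.1, adjusted 0.114), and with 5 counts added to both genes the difference was -0.37. Col11a1 per Col5a1 compares the transcripts of 2 chains that can share a trimer. It had a mean of 0.0519 in WT and 0.00108 in GαqKO (exact p = 0.1, adjusted 0.114).

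**Figure D4:**
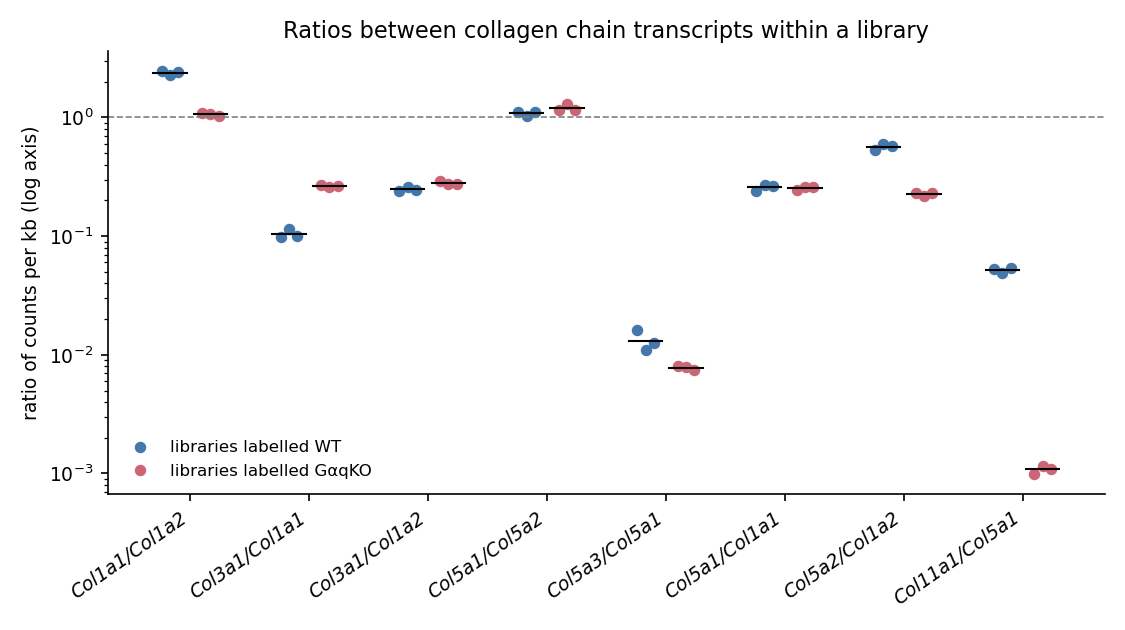
Ratios of normalized counts per kb between pairs of fibrillar collagen genes (log axis) in each library labelled WT (blue) and GαqKO (red), with a bar at each group's geometric mean and a dashed line at 1; lengths are of merged exons, and levels would shift with another length. Col1a1 per Col1a2 drops from 2.38 to 1.06 (1.12 to 0.499 with canonical transcripts), Col5a1 per Col1a1 overlaps between the groups, and Col11a1 per Col5a1 shows the widest gap.

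Over the 6 libraries, the genes whose pattern was most like that of Col1a1 were Col5a1, Flnc, Creb3l2, Tns3 and Myh10, in that order. Likeness was the Euclidean distance between centred log2 values over the 3101 genes whose mean reached 1000 normalized counts, and it ran from 0.145 for Col5a1 to 0.211 for Myh10. This distance mostly follows the size of the change between the groups. The 5 genes had log2 fold changes from -1.61 to -1.47, beside -1.53 for Col1a1. Flnc encodes an actin cross-linker, Creb3l2 a membrane-bound transcription factor of the secretory pathway, Tns3 an adhesion protein and Myh10 a non-muscle myosin. Col5a1 was the only member among these 5.

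Of the 107 genes in 7 lists that make, modify, bind, break down or regulate fibrillar collagens, 84 were tested, 22 rose and 41 fell (limma, adjusted p under 0.05; 31.8% and 34.1% of all genes), and their median log2 fold change was -0.17. The same shares of all genes are the background for each list below, and 65.8% passed in either direction. In 8 genes of the lists every library was at 0, and 5 of these lie wholly inside the span of another gene. For the genes described next, more than 20% of the exon bases of Crtap, Lox, Loxl2, Loxl3, Mmp2, Tgfb2 and Prrx1 lie inside other genes, so their counts are less certain.

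Among 23 genes that hydroxylate, fold and export procollagen, 5 rose and 11 fell of 22 tested, with a median log2 fold change of -0.10. Tmem38b, an ion channel of the endoplasmic reticulum, was at 204, 201 and 179 normalized counts in WT and 12.2, 4.62 and 4.03 in GαqKO and fell by 4.76. Fkbp14, a prolyl isomerase, fell by 1.47. P3h3, of the prolyl 3-hydroxylase family, rose by 1.35, and Crtap, a partner of prolyl 3-hydroxylase 1, by 0.73.

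All 6 tested genes of propeptide removal passed the test, 2 higher and 4 lower, where 65.8% of all tested genes passed in either direction. Adamts3 and Adamts2, which cut off the amino-terminal propeptides, had log2 fold changes of -2.92 and -1.58. Adamts14, a relative with the same activity, rose by 0.35 although 1 GαqKO library lay within the WT range, and Pcolce, an enhancer of carboxyl-terminal cleavage, rose by 0.23.

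The 5 lysyl oxidases, which cross-link collagen and elastin, split into 3 that rose and 2 that fell. Lox was at 8492, 8489 and 8204 normalized counts in WT and at 2608, 2716 and 2469 in GαqKO (log2 fold change -1.69, SE 0.04; limma, adjusted p = 1.14e-12). Loxl2 was at 3586, 3108 and 3399 in WT and at 451, 404 and 382 in GαqKO (log2 fold change -3.03). Loxl3 and Loxl4 each rose by 1.81. Loxl1, which also rose, has all its exon bases (100%) inside the span of another gene, so its count is less certain. In each of these genes the groups did not overlap, as held for 35.8% (GαqKO lower) and 33.8% (GαqKO higher) of all tested genes.

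Of 10 tested partners at the fibril surface, 2 rose and 5 fell, and their median log2 fold change was -0.26. Dcn, the proteoglycan decorin, which coats type I fibrils, was at 35.5, 30.1 and 30.5 normalized counts in WT and at 1710.0, 1674 and 1604 in GαqKO (log2 fold change 5.66, SE 0.10; limma, adjusted p = 2.14e-14). Fmod, the related proteoglycan fibromodulin, went the other way, from 182, 219 and 210 in WT to 5.63, 3.47 and 5.04 in GαqKO, with a WT to GαqKO ratio of reads of 43.7 (exact 95% interval 22.9 to 96.0, 605 against 9 reads, counting error only). Postn, the matricellular protein periostin, rose by 2.58, and Fn1, fibronectin, which helps to lay down type I fibrils, fell by 0.73.

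Of 7 tested collagen receptors, 4 rose and 3 fell, against 31.8% and 34.1% of all tested genes. Ddr1, a receptor kinase for collagen, had a log2 fold change of -1.94 and its relative Ddr2 one of -0.18. Mrc2, which takes up collagen fragments, rose by 0.75, and Itgb1, the β chain of the collagen-binding integrins, by 0.60. Among 7 tested genes of collagen breakdown, 1 rose and 4 fell: Mmp9, a gelatinase, rose by 4.32, whereas Mmp2, the other gelatinase, and Timp2, an inhibitor of these enzymes, had log2 fold changes of -0.90 and -0.61.

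Of 27 tested regulators of fibrillar collagen transcription and mRNA, 5 rose and 12 fell. Creb3l1, the membrane-bound transcription factor OASIS, which activates Col1a1 in osteoblasts, was at 1962, 1879 and 1898 normalized counts in WT and at 0.939, 10.4 and 3.02 in GαqKO. Its reads numbered 5678 in the 3 WT libraries and 10 in 2 GαqKO libraries, a ratio of 369 with an exact 95% interval of 201 to 769.9 that covers counting error only. Tgfb2, a ligand of the TGF-β pathway that raises collagen expression in fibroblasts, had a log2 fold change of -3.32, while the receptor Tgfbr2 rose by 1.15 and the mesenchymal homeobox gene Prrx1 by 1.90.

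**Figure D5:**
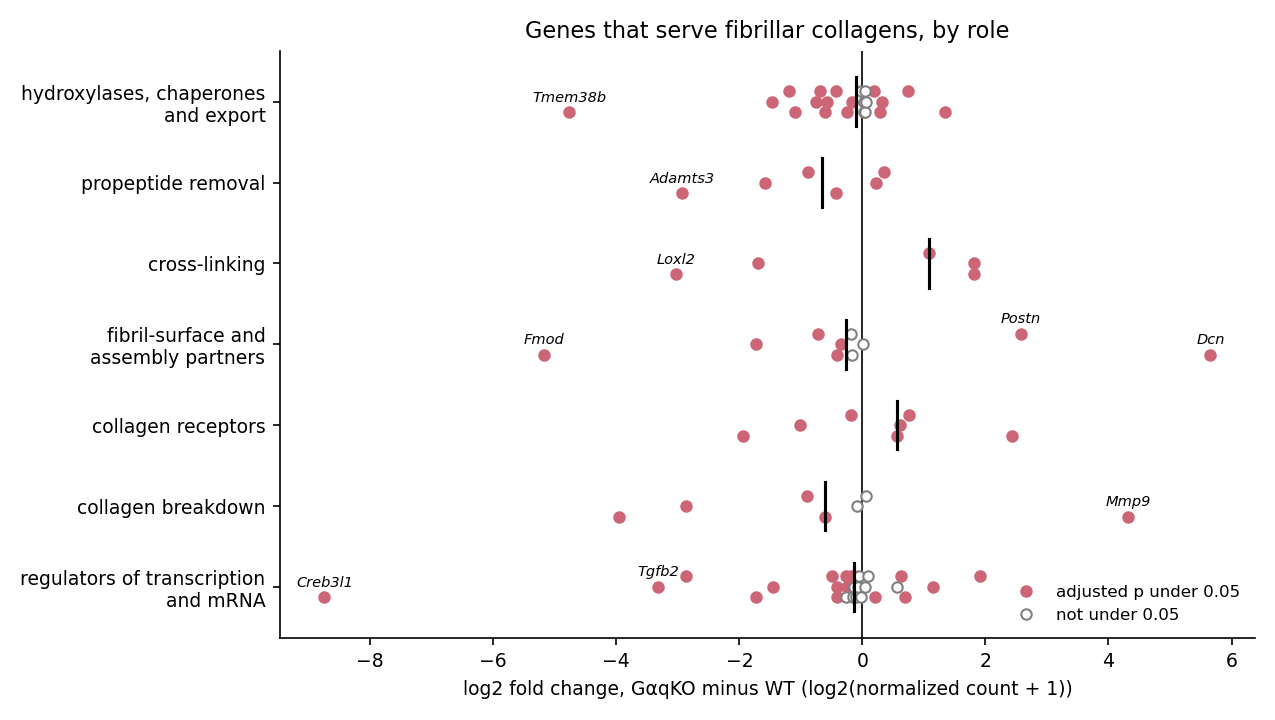
Log2 fold change, GαqKO minus WT, of the 84 tested genes of the 7 lists, in rows by role, with filled points for an adjusted p under 0.05 (limma), open points for the others, and a black bar at each list's median. Filled points lie on both sides of 0 in every row, and the extremes are Creb3l1 at -8.74 and Dcn at 5.66.

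The cell identity of the libraries was checked with marker lists. All 8 fibroblast markers were tested, 7 rose and 1, Vim, fell, against 31.8% and 34.1% of all tested genes. Their sum ran from 45793 to 50818 normalized counts in WT and from 53429 to 54909 in GαqKO. Vim made up most of that sum, at a mean of 41785 in WT and 33508 in GαqKO, while Prrx1 went from 3572 to 13374. Pdgfra was at 17.5 to 21.9 in WT and at 2274 to 2356 in GαqKO. Thy1 was at 0 in 2 WT libraries and at 59.0 to 76.5 in GαqKO. Smooth muscle markers summed to 701 to 864 in WT and 276 to 313 in GαqKO, with Myh11 and Cnn1 under 10 in every library, and epithelial markers to 255 to 285 against 9.06 to 20.8, with Cdh1 at 235 to 241 against 5.04 to 10.4 and Epcam and Krt5 under 10 in every library. The part of these differences in the collagen results was not tested.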

How the data were processed

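The data were 6 bulk RNA-seq libraries of MEFs, 3 per genotype, grouped by their GEO labels. The authors aligned paired reads to GRCm39 with Rbowtie2, counted them per gene with featureCounts on a GENCODE annotation and used DESeq2. The authors deposited normalized counts, a signal made by dividing gene counts by 1 size factor per library; tool versions, strand setting and low-count filter are not given in the sources used here. Symbols, positions and lengths came from a later GENCODE release on GRCm39, in which 56310 of the 56953 identifiers were found.

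Because the values are normalized, limma 3.58.1 in R 4.3.3 was fitted to log2(normalized count + 1), using its trended prior variance. P-values were adjusted (Benjamini-Hochberg) over 14096 genes, those reaching 10 normalized counts in 3 or more libraries. In 5 libraries 100% of nonzero values were whole multiples of 1 step (tolerance 0.01 read), which gave 9853000 to 12229175 reads; GαqKO replicate 3 was not used for reads. On those reads edgeR 4.0.16 called 1460 genes higher and 1554 lower past a log2 fold change of 1, and DESeq2 1.42.0 called 1333 and 1501. The scripts were tested on simulated data. Replicate pairs differed by more than counting noise (chi-square per gene 2.38 to 5.10). Chain ratios were compared by exact permutation, and intervals and floors cover counting error only.

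The members, lists and tests were chosen with earlier results of these data known. The text names all members, the targeted genes, Col11a2, the ratio genes, the 5 genes most like Col1a1 and, per list, up to 2 rises and 2 falls with an adjusted p under 0.05 and a mean of at least 100 normalized counts. Marker genes, the Y-linked genes with Xist, and Loxl1 were named beside these. The alternatives were other pseudocounts (0.5 and 5), filters, TMM scaling, no trend, a replicate block, edgeR, DESeq2, other lengths and each library left out. Promoter windows were read from GRCm39. Python 3.11.15 was used with numpy 2.4.6, pandas 2.3.3 and matplotlib 3.10.9.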

Additional observations from a re-analysis of the deposited data

How the results depend on the processing

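Of 338 values recomputed under an alternative, 321 counted as kept, by a rule that differed with the kind of value. Counts of genes had to stay of similar size, chain ratios to keep their sign whatever their p, and levels to move by less than their SD. Only the 134 values for single members were held to their direction and their side of the threshold, and 133 kept both. The exception was Col3a1 with DESeq2 on the reads of 5 libraries (log2 fold change -0.14, adjusted p = 0.0685). Col11a1 kept its direction, with log2 fold changes from -7.12 to -5.76. The filter of 10 normalized counts in every library removes genes by construction, Col11a1 among them, and left 831 genes higher and 765 lower past a log2 fold change of 1, against 1432 and 1486 with the filter used.

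With 1 library left out, 8 members remained lower and 1 higher in each case, and 1394 to 1447 genes were higher and 1464 to 1506 lower past the fold threshold. The log2 difference of Col5a1 per Col1a1 ran from -0.0672 to 0.0130 and changed sign without WT replicate 2 (0.0130) and without GαqKO replicate 1 (0.0124). Its groups overlap. That of Col5a1 per Col5a2 was 0.0799 without GαqKO replicate 2 and 0.0935 without WT replicate 2 (exact p = 0.3 each), against 0.14. With a pseudocount of 5, that of Col5a3 per Col5a1 was -0.37, against -0.75.

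Levels compared between genes moved with the length used. With the longest transcript, Col1a1 per Col1a2 was 1.13 in WT and 0.506 in GαqKO, Col3a1 per Col1a1 0.171 and 0.434, and Col5a1 per Col5a2 0.759 and 0.834. With the canonical transcript, a choice made after seeing the data, they were 1.12 and 0.499, 0.174 and 0.442, and 0.759 and 0.834. With merged exons they were 2.38 and 1.06, 0.104 and 0.265, and 1.09 and 1.20. Merged exons also cover parts that the longest transcript lacks.

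Replicate numbers did not pair the libraries: deviations of same-numbered libraries correlated at -0.05, -0.15 and -0.06. With a replicate block, 8 members were lower and 1 higher, 1421 genes were higher and 1478 lower past the fold threshold, and 22 and 40 genes of the lists were higher and lower. The paired sign-flip test of the ratios cannot give an exact p under 0.25. Depth limits Col2a1, and Col11a1 in GαqKO, both at a few reads per library.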
